A study of Xenopus tropicalis with 192 samples.

Results

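The oldest adult frogs of this Xenopus tropicalis collection were 22 animals of 3987 days, taken here as all adults of that age and of the strain Xtr.Tg(eef1a1:GFP)Krieg, out of 192 animals in all (187 adults and 5 tadpoles). They were housed in 4 tanks named A133 (8 frogs, numbers 39 to 46), A135 (4 frogs, 47 to 50), A137 (4 frogs, 51 to 54) and A139 (6 frogs, 55 to 60), and all were sequenced on lane 1. Age, strain and lane are constant over the 22 animals, so the comparison asked how far frogs of 1 age differ from each other and whether the tank accounts for a part of that. All animals of the study, these included, carry a Nigerian genetic background and were kept at the same resource in recirculating racks at 25°C with 12 hours of light and 12 of dark, and the strain adds a GFP reporter behind the eef1a1 promoter, which drives a translation elongation factor used by nearly every cell. DNA came from a punch of hindlimb webbing, and neither sex nor kinship was used here. The paper called genetic variants between frogs from the same reads, and these were not used here. Frogs of 1 tank share water, handling and perhaps parents, and each tank is a single housing unit. The assignment of frogs to the hybridisation pools of 16 is not given in the sources used here. Tank, kinship and pool therefore cannot be told apart from the values used here, and p-values between tanks measure only the spread between frogs.

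CpG methylation is the addition of a methyl group to cytosines that stand before a guanine. In vertebrates most CpGs of the genome are methylated, the maintenance enzyme Dnmt1 copies the pattern at cell division, and many CpG islands near promoters stay unmethylated. The webbing of the hind foot is thin skin with epidermis, connective tissue, vessels, glands and pigment cells, and the DNA of all of them was measured together, so a shift in cell types and a shift within cells cannot be told apart, and the tissue could not be checked by marker expression because no RNA was measured. In bisulfite sequencing an unmethylated cytosine is read as T, and a T that lies in the DNA itself is read in the same way, which the deposited values do not separate.

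The methylation level of a CpG site was the deposited fraction of reads that stayed C, between 0 and 1, at 6717 CpG sites that the authors kept because every frog had at least 100 reads there. The depth behind a single value is otherwise unknown, so no interval is given for one. The mean depth listed for each frog ran from 375 to 961 reads a site. It averaged 752 ± 148 in A133 (SD, n = 8), 501 ± 42.8 in A135 (n = 4), 733 ± 56.7 in A137 (n = 4) and 640 ± 194 in A139 (n = 6), and no A135 library exceeded 564. Of the 6717 CpG sites, 6175 passed the 3-level filter described in the study's methods, repeated here, and 542 did not. The paper proposes that 3-level sites likely come from inherited C to T changes in some strains, and it left them out. Here the sites that did not pass stayed in the comparison, and the origin of their levels was not tested. The paper reports a slightly larger number of sites left, so the repeat did not give exactly its set.

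Frog 48 of tank A135 stood apart from the other 21, and counts of called sites are given with and without it. The root mean square (RMS) difference between its methylation levels and those of each other frog was 0.159 to 0.177 (median 0.166), whereas the 210 pairs without it lay between 0.0576 and 0.120. Its level lay outside the range of all 21 others at 2282 of the 6717 CpG sites (34.0%), above them at 571 and below them at 1711. In each of the other 21 frogs that number was between 198 and 964. Its 3 tank mates had a mean RMS difference of 0.103 to 0.111 to the rest of A135, frog 48 included. Frogs of the other tanks had 0.0741 to 0.0906 to their own mates. Without frog 48 the pairs within A135 had a median of 0.0768, against 0.0786 in A133, 0.0835 in A137 and 0.0798 in A139. The depth of frog 48, at 564, was the highest of its tank. No pair of the 22 frogs held identical values. In every pair the mean squared difference was at least 9.67 times the binomial expectation from the mean depths. All 22 therefore counted as separate samples.

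**Figure D1:**
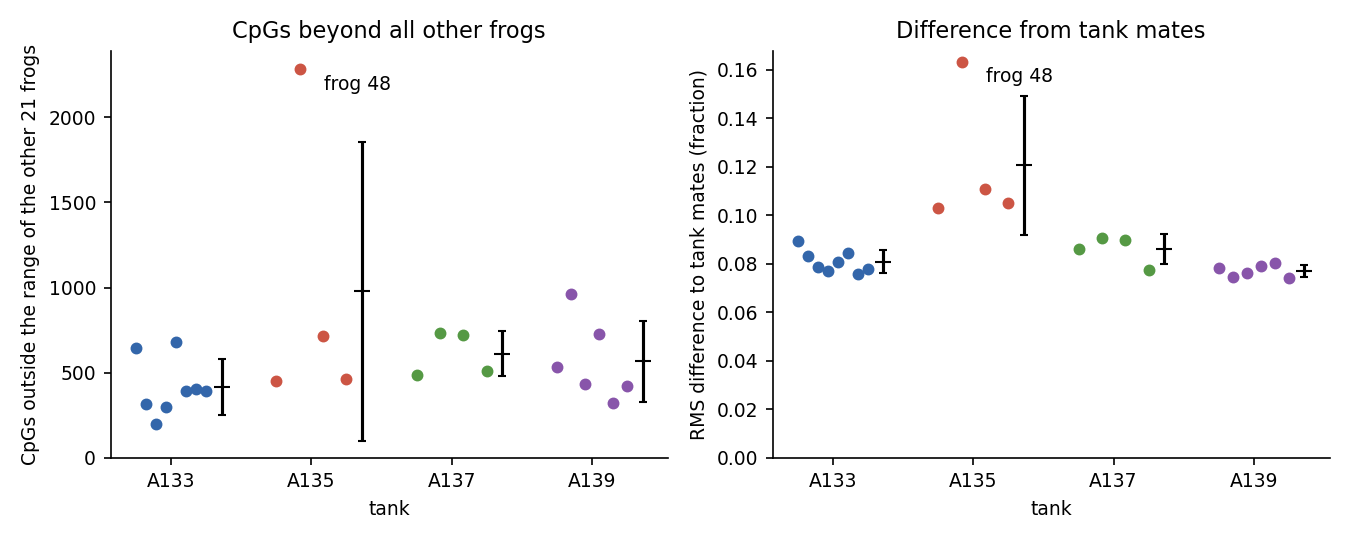
Each point is 1 of the 22 frogs, grouped by tank, with its RMS difference in methylation level to its tank mates and the number of CpG sites where its level lies outside the range of the other 21 frogs. Frog 48 of A135 is at 0.163 and 2282 sites, and no other frog is above 0.111 or above 964 sites.

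Frog 48 differed strongly from the others at many sites. At 176 CpG sites it sat at a level that the other 21 did not show, 94 where it was above 0.3 and they were all below 0.1 and 82 where it was below 0.55 and they were all above 0.7, and no other frog had more than 1 such site. Frog 48 was above 0.8 at 50 of the 94 and below 0.1 at 19 of the 82, so many of these differences were partial. Of the 176, 55 (31.2%) were on chromosome 4, which holds 9.75% of all sites, and 39 (22.2%) on chromosome 1, which holds 29.7%. Only 58 of the 176 sites passed the 3-level filter, and the sites in cyld, xpr1 and prkd3 described next did not. In cyld, which encodes an enzyme that removes ubiquitin chains, frog 48 had 0.923 at position 51216684 of chromosome 4 and the other 21 had 0. In xpr1, the gene of a phosphate exporter, it had 0.918 at position 100954809 of that chromosome, again against 0 in the other 21. Both directions occurred side by side in prkd3, a protein kinase D gene, where 1 site was at 0.0034 in frog 48 and at 0.936 to 0.980 in the others, and another 13 bp away was at 0.903 and at 0 to 0.0019. These 4 windows are shown because they carry the difference, as printed in the study's table of capture probes for the X. tropicalis v10.0 genome (the strand is not listed), with the measured CpG in capitals.
prkd3 first site (chr4:38950042-38950162): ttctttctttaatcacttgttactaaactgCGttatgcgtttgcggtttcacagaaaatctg
prkd3 second site (chr4:38950042-38950162): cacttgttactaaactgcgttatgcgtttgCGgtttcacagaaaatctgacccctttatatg
cyld (chr4:51216625-51216745): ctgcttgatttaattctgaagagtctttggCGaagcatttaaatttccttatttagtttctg
xpr1 (chr4:100954750-100954870): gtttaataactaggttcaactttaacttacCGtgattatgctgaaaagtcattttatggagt

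The younger tank of the same strain, C410 (5 frogs of 2523 days, also on lane 1), gave a second view of these sites. At the second prkd3 site the 5 C410 frogs had 0.470 to 0.527 and in xpr1 0.429 to 0.507, between the level of frog 48 and that of the other 21, while in cyld all 5 had 0. Over the 94 sites where frog 48 was high, all 5 C410 frogs lay between 0.3 and 0.7 at 41 and were low at 27, and every one of the 94 sites exceeded 0.3 in at least 1 frog outside the 22. Of the 82 sites where it was low, 33 were below 0.55 in some frog outside the 22, and all 5 C410 frogs were above 0.7 at 70. Measured against each tank of the collection, frog 48 had its smallest median RMS difference to C410 (0.151, rank 1 of 34, with single C410 frogs at 0.148 to 0.152), but the nearest frog of another strain was also at 0.151. Its own tank mates came at rank 7 with 0.161. The other 21 old frogs were 0.0992 to 0.133 from the C410 frogs, and the C410 frogs 0.0643 to 0.0889 from each other. What sets frog 48 apart was not tested.

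Tanks were then compared at every CpG site by limma's moderated F test over the 4 tanks, on the log2 of methylated over unmethylated share with an offset of 0.001 in both, with Benjamini-Hochberg adjustment over the 6717 sites and a threshold of 0.05. The methylation level differed between tanks at 41 CpG sites (0.61%) with 22 frogs and at 70 (1.04%) without frog 48, and 37 sites passed both ways. An unadjusted p under 0.05 was reached at 1250 and 1253 sites. Among the 41, the largest difference between tank means had a median of 0.0367 and ran from 0.0158 to 0.673, and 26 lay at a mean level over 0.9 (63.4%, beside 45.8% of all sites). A139 was the highest tank at 19 of the 41 and A137 at 13, whereas A135 was the lowest at 19 and A133 at 14. Chromosome 2 held 14 of the 41 sites (34.1%) and 12.2% of all sites, and 4 of the 14 were neighbours at LOC116408695. Leaving out 1 frog at a time moved the count of 41 to between 7 (without frog 58) and 83 (without frog 47), and for 18 of the 22 frogs by more than 1.5 times.

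Pairs of tanks were compared in the same fit. For A133 against A139, 4 CpG sites were higher in A133 (0.0596% of those tested) and 26 lower (0.387%), and without frog 48 the numbers were 8 (0.119%) and 122 (1.82%). A135 was higher than A139 at 7 sites (0.104%) and lower at 37 (0.551%), and without frog 48 at 10 (0.149%) and 15 (0.223%). For A133 against A137, 3 sites were higher (0.0447%) and 12 lower (0.179%), against 6 (0.0893%) and 33 (0.491%) without frog 48. No site passed between A133 and A135, where 548 had an unadjusted p under 0.05, between A135 and A137 (1073) or between A137 and A139 (500). Without frog 48 no site passed in either of the first 2 pairs, and A137 was higher than A139 at 2 sites (0.0298%) and lower at 1 (0.0149%), with 570, 709 and 592 at an unadjusted p under 0.05. Depth moves with these counts. With the log2 depth of each frog in the fit, the F test called 93 sites, A135 and A139 differed at 304 and A133 and A139 at 6, and with depth and without frog 48 those numbers were 103, 59 and 31. The part of depth in these counts was not tested beyond these fits.

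With all 22 frogs, the called site with the widest separation of tank means was at position 92637997 of chromosome 2, inside bcas3, a gene for a cytoskeleton-associated protein involved in cell migration. The site did not pass the 3-level filter. Its methylation level in the A133 frogs was 0.551, 0.504, 0.532, 0.964, 0.877, 0.537, 0.490 and 0.466. In A135 it was 0.944, 0.549, 0.583 and 0.953, in A137 0.472, 0.507, 0.548 and 0.566, and in A139 it was 0 in 5 frogs and 0.504 in frog 59. No frog of A133, A135 or A137 was at 0, and frog 59 was the only A139 frog in their range. The tank means were 0.615 ± 0.192 in A133 (SD, n = 8), 0.757 ± 0.221 in A135 (n = 4), 0.523 ± 0.0419 in A137 (n = 4) and 0.0839 ± 0.206 in A139 (n = 6), beside 0.518 in C410. The F test gave an adjusted p of 0.0108 (0.00468 without frog 48; limma). On the log2 scale A133 exceeded A139 by 9.30 ± 1.33 (SE, adjusted p = 0.00516, limma), a size that depends on the offset because most A139 values are 0.

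Without frog 48 another called site was the widest, at position 30510610 of chromosome 2, inside LOC100486901, which is described here after its values were seen. Like the site in bcas3, it did not pass the filter described in the study's methods. The A133 frogs had 0.406 to 0.733 except frog 39, with 0.0061. The level was 0.869, 0.843 and 0.863 in the A135 frogs 47, 49 and 50 and 0 in frog 48, so that the A135 mean was 0.644 ± 0.429 with frog 48 and 0.858 ± 0.0135 without it. The A137 frogs had 0.307 to 0.522, and the A139 frogs 0 in 4 and 0.0096 and 0.0038 in the others, so all of A139 lay with frogs 39 and 48 at the bottom. The largest difference of tank means was 0.642 with frog 48 and 0.856 without it, and the F test adjusted p 0.0412 and 0.000243 (limma). In bcas3 those differences were 0.673 and 0.743.

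Further sites of chromosome 2 moved with the bcas3 site. Over the 21 frogs without frog 48, 10 further CpG sites correlated with the bcas3 site at an absolute r over 0.8, all on chromosome 2 between positions 89655561 and 96734829. They lay at LOC105946707, in macf1, which encodes a large linker of microtubules and actin, at LOC116408695 (6 sites) and at LOC116408696 (2 sites), and 3 of them ran in the opposite direction. These sites were chosen by the correlation, so it is a description. Those at LOC105946707, in macf1 and at position 96734753 near LOC116408696 did not pass the 3-level filter. At LOC105946707 (4364 bp away) the A139 frogs were at 0 except frog 59, with 0.400, the A135 frogs at 0.940, 0.460, 0.380 and 0.926, and the A137 frogs between 0.339 and 0.394. The A133 frogs ran from 0.380 to 0.911 with frogs 42 and 43 at the top. Frog 48 left the pattern in macf1, at 0 against 0.569, 0.326 and 0.599 in its tank mates. Frog 42 was high in bcas3, macf1 and at LOC105946707 but not at the sites of LOC116408695 and LOC116408696, and at position 96726126 it had 0.3003, where frogs 43, 47 and 50 had 0.969, 0.967 and 0.973. At position 96726019, 2346 bp from LOC116408695, the mean was 0.140 ± 0.0686 in A135 and 0.0482 ± 0.00826 in A139, a log2 difference of 1.57 ± 0.26 (adjusted p = 0.00813, limma). Frog 48 had 0.237 there, and without it the A135 mean was 0.108 ± 0.0278 (adjusted p = 0.00979), with a difference of the means of 0.0596 instead of 0.0920. The F test call at this site was lost in 11 of 29 alternatives.

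**Figure D2:**
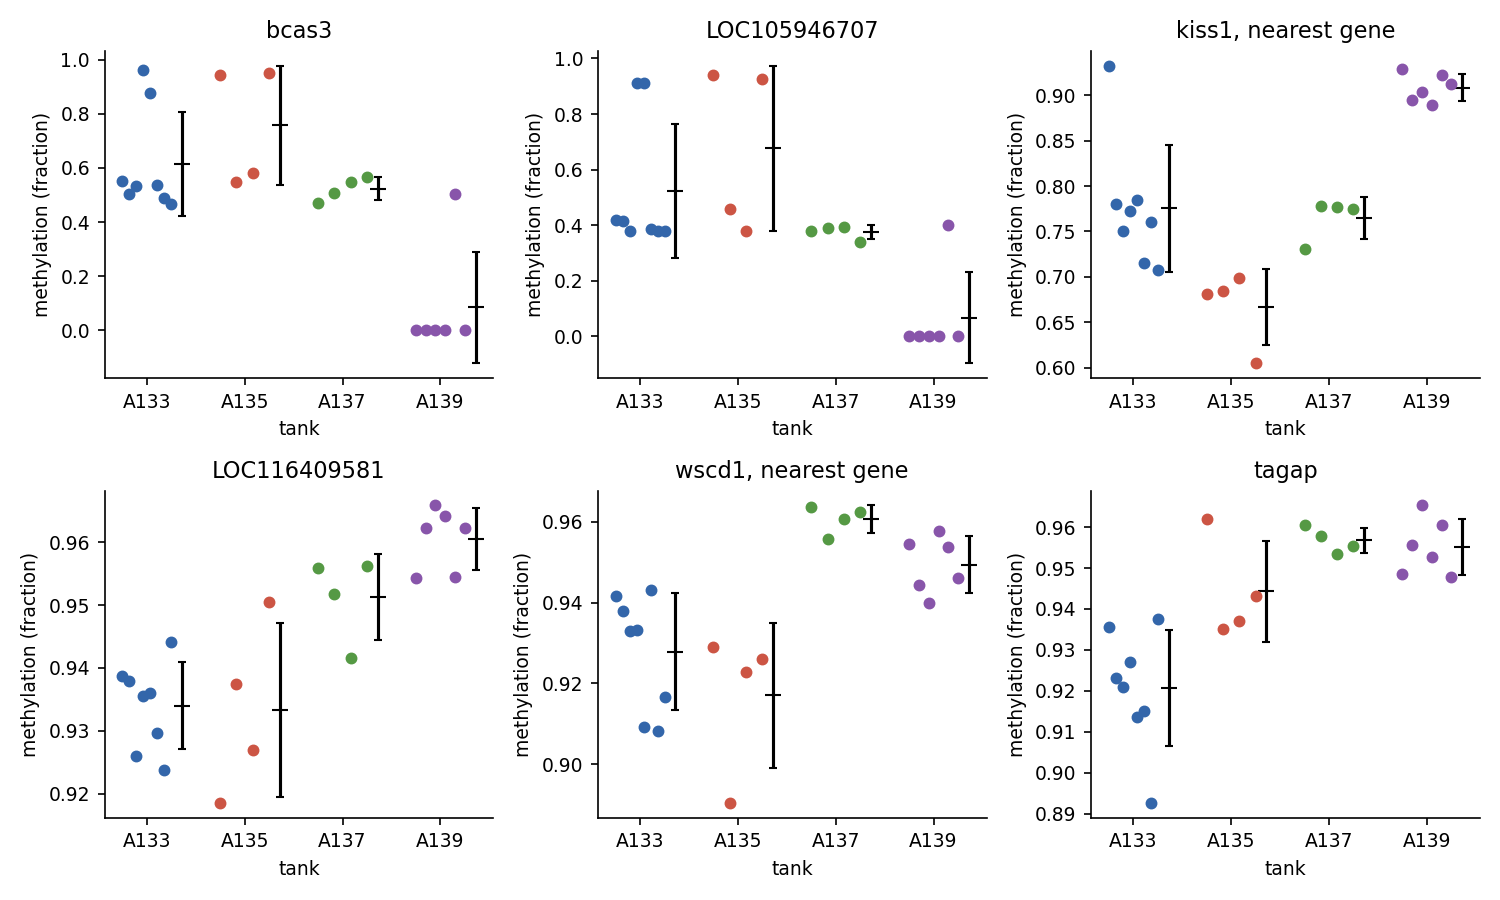
Methylation level of every frog, by tank, at the 6 CpG sites with the smallest F test p among those named by the rule for called sites. Beside the points stand the mean and SD over all frogs of the tank, frog 48 included. In bcas3, at a site that did not pass the 3-level filter, 5 of the 6 A139 frogs are at 0. At the site near kiss1 all A139 frogs lie at 0.889 or higher.

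A second site of chromosome 2 separated A139 in the other direction. Position 68054564 lies 64877 bp from its nearest gene, kiss1, which encodes the precursor of kisspeptin, a peptide of the reproductive axis. In A133 its level was 0.707 to 0.785 in 7 frogs and 0.933 in frog 39 (0.775 ± 0.0697 over 8). It was 0.681, 0.684, 0.698 and 0.605 in A135 (0.667 ± 0.042), 0.731, 0.778, 0.777 and 0.774 in A137 (0.765 ± 0.023), and 0.928, 0.895, 0.903, 0.889, 0.922 and 0.912 in A139 (0.908 ± 0.0153). Of the frogs outside A139, frog 39 alone reached the levels of A139. Against A139, A133 was lower by a log2 difference of -1.43 ± 0.28 (adjusted p = 0.0258) and A135 by -2.31 ± 0.33 (adjusted p = 0.00542, limma). Without frog 48 the A135 mean was 0.661 ± 0.0496 and the adjusted p-values of the 2 pairs were 0.0175 and 0.00700. This site passed the F test with 22 frogs (adjusted p = 0.0133) and in 29 of 29 alternative fits over the 4 tanks at the same threshold, and a neighbouring CpG at position 68054488 passed as well (adjusted p = 0.0172).

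Most of the other called sites were close to full methylation and differed by a few hundredths. At LOC116409581 on chromosome 3 the mean was 0.934 ± 0.00693 in A133, 0.933 ± 0.0138 in A135, 0.951 ± 0.00686 in A137 and 0.961 ± 0.00496 in A139. A133 was lower than A139 by -0.77 ± 0.12 on the log2 scale (adjusted p = 0.00516, limma), and 3 CpG sites of this window, this one included, passed the F test. A site of chromosome 2 whose nearest gene is ncam2, a neural cell adhesion molecule, had means of 0.918, 0.905, 0.936 and 0.952 in A133, A135, A137 and A139. Without frog 48 the A135 mean was 0.932 ± 0.0166 at LOC116409581 and 0.917 ± 0.0122 near ncam2. The windows of these 2 sites, on different chromosomes, share the 18 bases gcgactatttattttgac, a run found in 4 of the 1980 capture probes read (0.202%, both strands searched).

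Tanks A133 and A137 differed at 2 further highly methylated sites that were named by the same rule. The site nearest to tagap (4792 bp), the gene of a GTPase-activating protein of activated T cells, had 0.921 ± 0.0142 in A133 and 0.957 ± 0.00306 in A137, a log2 difference of -0.90 ± 0.16 (adjusted p = 0.0451, limma). The site nearest to wscd1 (171780 bp) had 0.928 ± 0.0144 in A133 and 0.961 ± 0.00342 in A137, with -0.89 ± 0.16 (adjusted p = 0.0451). These pair calls are fragile: the count of 15 sites between A133 and A137 ran from 0 to 39 when 1 frog at a time was left out, moved by over 1.5 times for 20 of the 22 frogs, and was 0 with robust variances. On the scale of the plain fraction, which gives less weight to changes near 1, the F test called only 1 site, and 11 of the 12 sites named by the rule for called sites no longer passed.

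The windows of the called sites that these results turn on are printed below for the same genome, with the measured CpG in capitals.
bcas3 (chr2:92637937-92638057): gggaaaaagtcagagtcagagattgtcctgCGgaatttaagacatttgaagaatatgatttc
kiss1 nearest (chr2:68054505-68054625): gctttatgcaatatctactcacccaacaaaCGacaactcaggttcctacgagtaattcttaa
LOC116408695 nearest (chr2:96725959-96726079): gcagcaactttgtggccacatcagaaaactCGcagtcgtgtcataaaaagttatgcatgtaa
LOC116409581 (chr3:146810001-146810121): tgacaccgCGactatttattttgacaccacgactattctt
ncam2 nearest (chr2:19847892-19848012): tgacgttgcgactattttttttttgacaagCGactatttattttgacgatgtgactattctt

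A further 3 sites had middle levels and were named for a call between 2 tanks, which many alternatives lost. Without frog 48 the F test adjusted p was 0.0678 in setd3, 0.0524 in ndst2 and 0.0792 at position 96726126 (limma), so these sites did not pass it. At position 96726126 it was 0.0910 with 22 frogs, which did not pass either. In setd3, which encodes a methyltransferase of actin, A133 had 0.733 ± 0.0283 and A137 0.837 ± 0.0396 (log2 difference -0.92 ± 0.19, adjusted p = 0.0459, limma), and the call was lost in 21 of 29 alternatives. In ndst2, whose enzyme modifies heparan sulfate, A133 had 0.357 ± 0.0406 and A139 0.527 ± 0.0649 (-1.01 ± 0.22, adjusted p = 0.0462), lost in 18 of 29. A second site near LOC116408695, at position 96726126, had 0.709 ± 0.319 in A135 and 0.118 ± 0.0909 in A139 (5.45 ± 1.19, adjusted p = 0.0396), lost in 12 of 29. Without frog 48 its A135 mean was 0.754 ± 0.374 (adjusted p = 0.0448).

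A large share of the difference between frogs did not follow the tanks. Over the 21 frogs without frog 48, the first principal component took 26.3% of the variance, and 84.0% of its squared loadings were on chromosome 1, which holds 29.7% of the CpG sites. Some sites that followed it took 3 levels, near 0, near 0.5 and near 1, and their share of the loadings was not computed. Such a pattern, with values below 0.1, between 0.3 and 0.7 and above 0.8, was shown by 109 sites among the 22 old frogs, of which the 3-level filter over all 192 animals removed 97. Chromosome 1 held 46 of the 109. From these, 32 sites between positions 36685471 and 148165963 of chromosome 1 were picked for taking 3 levels in the 21 frogs and following the first component at an absolute r over 0.8, so their joint movement is a description of the choice. No 3-level site of another chromosome passed that limit.

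At position 97530050 of chromosome 1, in wrn, whose loss causes the premature ageing syndrome named after Werner in humans, the A133 frogs had 0.955, 0.518, 0, 0.505, 0.508, 0, 0.493 and 0.977. The level was 0.550, 0.952, 0 and 0.506 in A135, 0, 0.968, 0 and 0.446 in A137, and 0.525, 0, 0.476, 0.457, 0 and 0 in A139. Every tank held frogs at 0 and frogs near 0.5, and the tanks overlapped (F test adjusted p = 0.748, limma). At the site nearest to hpgd (9090 bp), which encodes the enzyme that inactivates prostaglandins, many megabases away, the A133 frogs had 0.966, 0, 0, 0.486, 0.526, 0, 0.536 and 0.513. There A135 had 0.518, 0.553, 0 and 0.587, A137 0.579, 0.976, 0 and 0.552, and A139 0, 0, 0.513, 0.524, 0 and 0. Frogs 41, 44, 49, 53, 56, 59 and 60 were at 0 at both sites, whereas frog 40 had 0.518 in wrn and 0 near hpgd, so the 2 sites did not always share a level. Neither site passed the 3-level filter. Both windows are shown because they carry 3 levels in frogs of 1 age.
wrn (chr1:97529991-97530111): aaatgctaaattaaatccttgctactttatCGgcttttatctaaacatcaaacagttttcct
hpgd nearest (chr1:48305085-48305205): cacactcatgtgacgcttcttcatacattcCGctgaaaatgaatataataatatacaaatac

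Along the 111 Mb of these 32 sites, 8 of the 21 frogs kept 1 level throughout, 10 changed level once, frogs 40 and 55 changed it 2 times and frog 52 changed it 3 times. The sites were chosen for moving together in these 21 frogs, so the low number of changes follows from the choice, and the 17 changes of frog 48, which had no part in it, cannot be compared with them. Frogs 44, 49, 53 and 59 were low at all 32 sites, frogs 42, 54 and 57 at the middle level, and frog 39 high, counting the 3 sites in apbb2, maml3 and spata5 that ran the other way as mirrored. The mean level of the unmirrored sites was 0.433 in A133, 0.463 in A135, 0.359 in A137 and 0.205 in A139, and F test adjusted p-values of the 32 sites were between 0.499 and 0.935 (limma). With 0.61% of all sites called, none among 32 is no result about these sites.

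**Figure D3:**
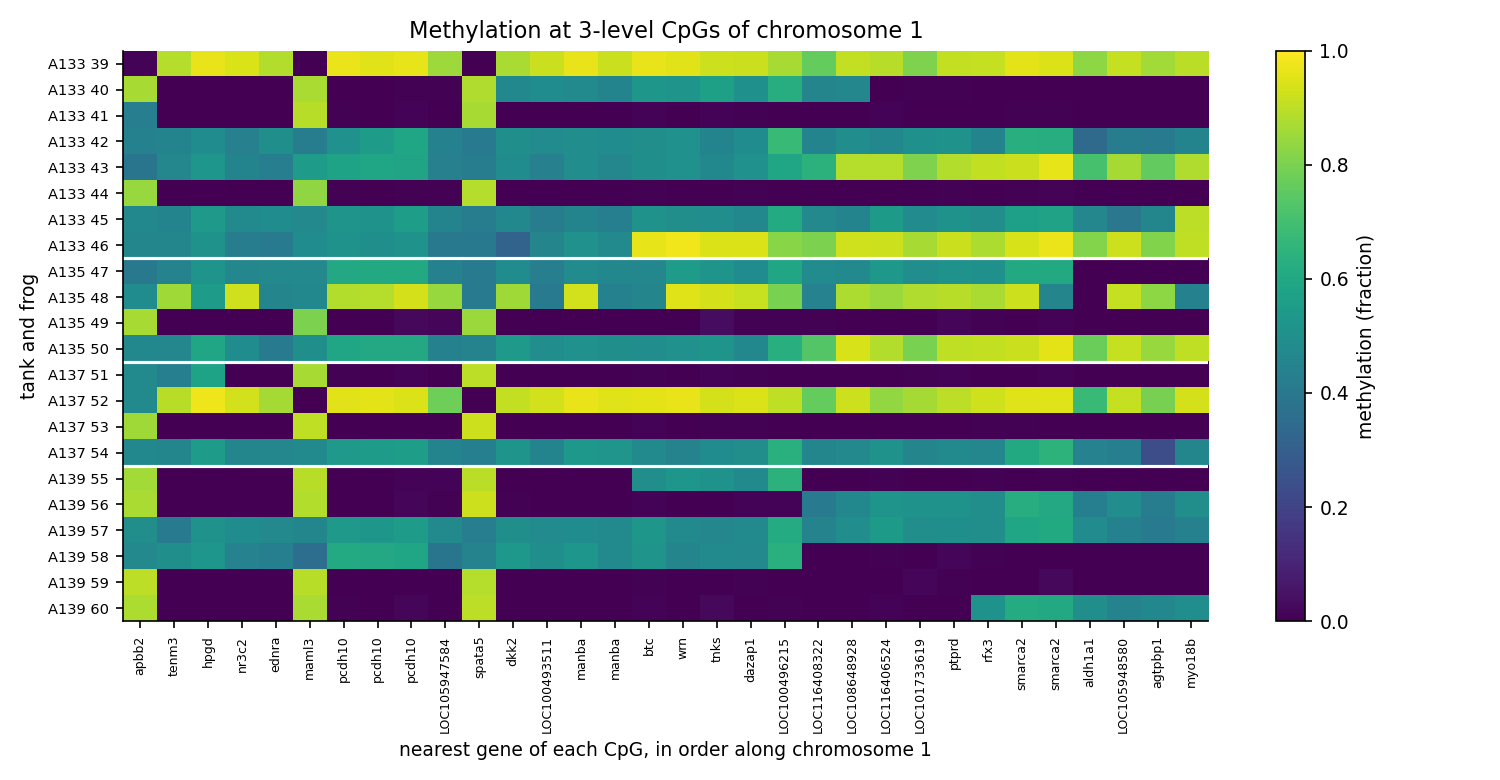
Methylation level of each frog (rows, by tank) at the chromosome 1 sites with 3 levels, in their order along the chromosome (columns). The sites were chosen for moving together in the 21 frogs other than frog 48, of which 8 keep 1 level and 10 change it once.

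Sites with 3 levels were also compared on the other chromosomes. For pairs of 3-level sites over 1 Mb apart, the median absolute r across the 21 frogs was 0.689 on chromosome 1 (1012 pairs) and 0.535 within the other chromosomes (228 pairs), whereas between chromosomes it was 0.166 (4602 pairs). Among those other chromosomes it ran from 0.219 on chromosome 9 (3 pairs) and 0.479 on chromosome 8 (35 pairs) to 0.842 on chromosome 7 (43 pairs). The points of each r are the same 21 libraries. Of the 109 sites, 3 were called between tanks (2.75%, beside 0.61% of all sites), and again 3 without frog 48 (beside 1.04%). Close neighbours moved together also at sites without levels: among sites with an SD over 0.02 and with tank means removed, the median r over the 21 frogs was 0.739 within 20 bp (449 pairs), 0.344 at 50 to 150 bp (977 pairs) and 0.0531 beyond 1 Mb.

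At a typical site the frogs of a tank were close. Over the 6175 filtered CpG sites the median SD within tanks was 0.0215 (0.0195 without frog 48). It was 0.0141 at sites with a mean level above 0.9 and 0.0575 at sites between 0.2 and 0.5. The tank accounted for 8.41% of the variance between the 22 frogs at the filtered sites (8.13% without frog 48) and for 6.62% over all 6717 (4.49% without frog 48). At 500 filtered sites the level ranged by more than 0.3 among frogs, and at 259 without frog 48. The widest spread within tanks among filtered sites, an SD of 0.316, was at position 81330627 of chromosome 9, in nxph2, which encodes a neurexophilin, a secreted ligand of neurexins. There frogs 39 and 42 of A133 had 0.921 and 0.929 and their 6 tank mates 0.341 to 0.371. The A135 frogs had 0.0627, 0.561, 0.0710 and 0.931, the A137 frogs 0.955, 0.363, 0.343 and 0.334, and the A139 frogs 0.943, 0.344, 0.329, 0.953, 0.364 and 0.310. High frogs near 0.93 were thus found in every tank, and the lowest only in A135. Other sites named for a wide spread were in tmem181 (0.288), near spata13 (0.294), near LOC780277 (0.239) and near LOC116410809 (0.237).

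The spread within the old tanks was set against that of the other adult tanks with at least 3 frogs. The mean SD within the tank was 0.0278 in A133, 0.0389 in A135 (0.0259 without frog 48), 0.0287 in A137 and 0.0265 in A139, or 0.0305 ± 0.0057 over the 4, against 0.0277 ± 0.0034 over 24 other adult tanks, which ran from 0.0193 to 0.0369. The difference of 0.00277 had a two-sided exact permutation p of 0.181 over tanks, and without frog 48 it was -0.000483 (exact p = 0.759). Within lane 1 alone, where 13 tanks served for comparison, the difference was 0.00235 (exact p = 0.216).

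**Figure D4:**
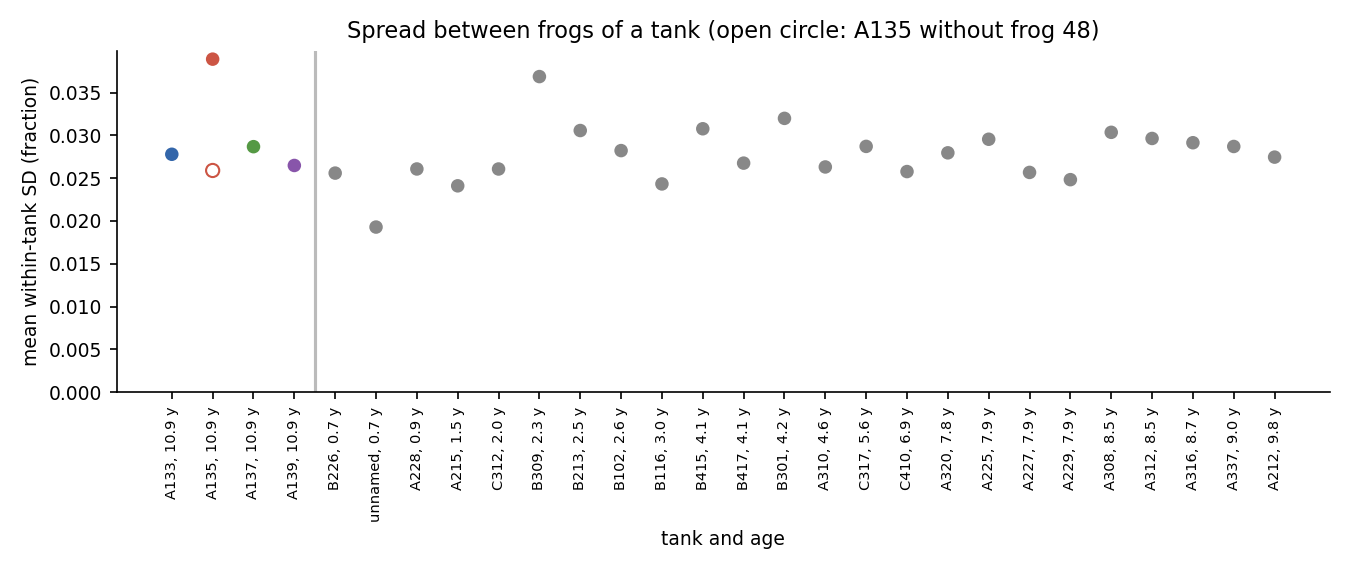
Mean SD of the methylation level within each adult tank over the filtered CpG sites, the 4 oldest tanks first and the other adult tanks after them (open circle: A135 without frog 48). A135 is at 0.0389, or 0.0259 without frog 48, and the other adult tanks lie between 0.0193 and 0.0369.

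By RMS difference, tank means of the old frogs were closer to each other than to the younger tank of their strain. After correction for the spread within tanks, the RMS difference between tank means ran from 0.0108 (A137 and A139) to 0.0223 (A135 and A137) among the 4 tanks, and from 0.0367 to 0.0416 between an old tank and C410 (0.0383 to 0.0447 without frog 48). Age and tank cannot be told apart in that second comparison. A pair of tanks of another strain with 1 age, B415 and B417, stood at an RMS difference of 0.0186. By the mean absolute difference of tank means the ranges overlapped. They were 0.0172 to 0.0271 among the 4 tanks and 0.0229 to 0.0282 against C410. Without frog 48 they were 0.0172 to 0.0226 and 0.0229 to 0.0278. The difference between those ranges was not tested.

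The mean methylation level over the filtered sites was 0.813 to 0.829 in A133 (0.823 ± 0.00685, n = 8), 0.809 to 0.832 in A135 (0.822 ± 0.00971, n = 4), 0.820 to 0.833 in A137 (0.826 ± 0.00623, n = 4) and 0.827 to 0.838 in A139 (0.833 ± 0.00361, n = 6). The tanks overlapped, with A139 on the high side. The difference A133 minus A139 was -0.0100 (two-sided exact permutation p = 0.00533, adjusted over the 6 pairs 0.0320), and A135 minus A139 was -0.0105 (exact p = 0.0143, adjusted 0.0429), which without frog 48 became -0.00609 (adjusted 0.143, exact). The other 4 pairs did not pass. The adjusted p of A133 minus A139 ran from 0.0233 to 0.117 when 1 frog at a time was left out and missed the threshold without frog 55, 56, 57, 58 or 60, and that of A135 minus A139 ran from 0.0357 to 0.167 and missed it without any of those 5 frogs or frog 48, 49 or 50 (exact tests). Over all 6717 sites, with those of 3 levels included, A133 minus A139 was -0.00825 (adjusted 0.192, exact) and A135 minus A139 was -0.00523 (adjusted 0.343, exact).

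The mean level moved with depth. Over the 22 frogs the mean methylation level fell with the listed depth (Pearson r = -0.455, permutation p = 0.033, adjusted over 6 relations 0.05, and Spearman rho = -0.455, permutation p = 0.034, adjusted 0.051). When the 2 frogs with the most distant depth were left out, r was -0.232 (permutation p = 0.33), so the pooled relation over the filtered sites did not hold without those 2. Over all 6717 sites r was -0.598 in the 22 frogs (permutation p = 0.0034, adjusted 0.0068). Within A133 r was -0.885 over 8 frogs (exact p = 0.0033; rho -0.881, exact p = 0.0072), and within A139 -0.737 over 6 frogs (exact p = 0.042; rho -0.829, exact p = 0.058). Without frog 48 the pooled r was -0.618 (permutation p = 0.0029, adjusted 0.0068). A135 and A137 hold too few frogs for a value of their own.

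**Figure D5:**
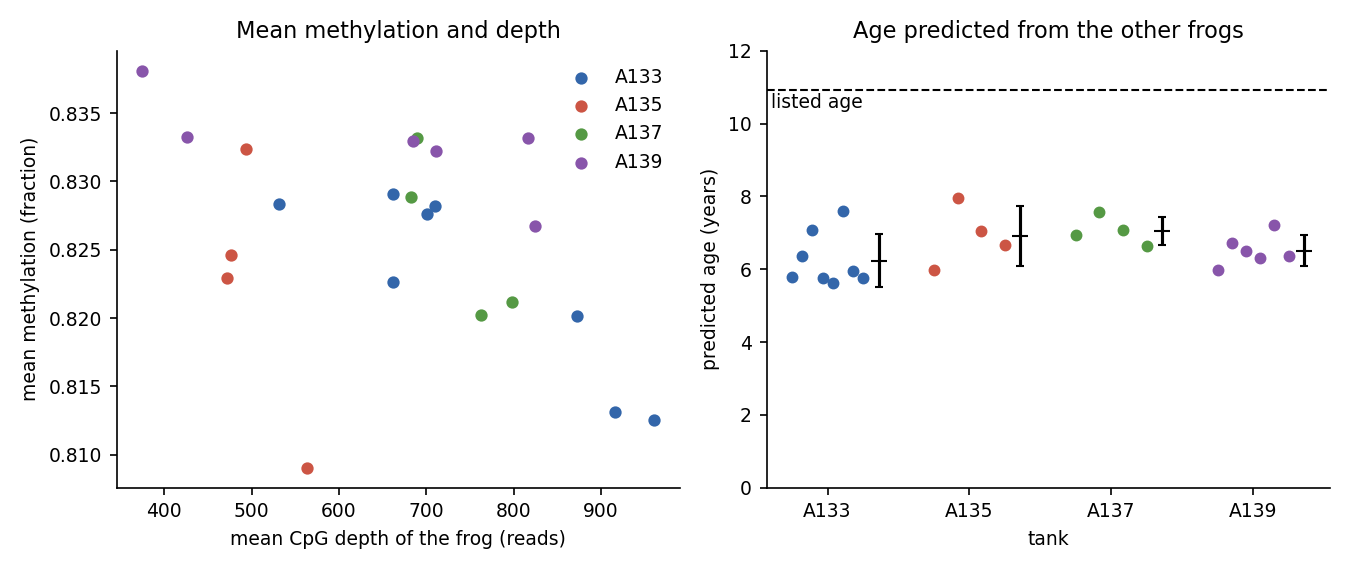
Left, mean methylation level of each of the 22 frogs against its mean depth in reads a site, coloured by tank; right, age in years predicted from methylation by a model trained on the other 170 animals, by tank, with the listed age as a line. All 22 predictions lie between 5.62 and 7.95 years, below the listed 10.9 years.

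None of the 6 sites most tied to age in the other 165 adults passed between these tanks. With 0.61% of all sites called, none among 6 is no result about these sites. Among the 1952 CpG sites whose level fell with age in those adults, the F test called 8 (0.41%), among the 256 that rose with age 0, and among the 3967 with neither 28 (0.706%). An unadjusted p under 0.05 was reached at 348 (17.8%), 28 (10.9%) and 814 (20.5%) of them, beside 18.6% of all sites. Without frog 48 the called numbers were 19 (0.973%), 2 (0.781%) and 39 (0.983%), beside 1.04% of all sites. Near rnf14.2 (5030 bp), of a family of ubiquitin ligases with similar copies, between which the placing of reads was not tested, position 36681341 of chromosome 3 (Spearman rho with age -0.854 in the other adults) had tank means of 0.853, 0.820, 0.880 and 0.865 in A133, A135, A137 and A139, against 0.766 in C410. At position 37433079, 62 bp from rnf14.3, the level (rho -0.792) had 0.111, 0.0979, 0.102 and 0.104, against 0.0735 in C410. Near ccn2 (10042 bp), the gene of a matrix-associated growth factor of connective tissue, the level (rho 0.733) was 0.635 ± 0.0328 in A133, 0.719 ± 0.0379 in A135 and 0.651 ± 0.041 in A139, with 0.656 in C410. The 4 A137 frogs had 0.796, 0.557, 0.804 and 0.558 there, so they formed pairs that spanned the other tanks. Without frog 48 the A135 mean was 0.838 near rnf14.2, 0.113 near rnf14.3 and 0.729 near ccn2. Another site whose level rose with age, near ankrd50, had tank means of 0.490 to 0.572 and 0.387 in C410. At these 2 rnf14 sites the old tanks were on the high side of C410, although the level fell with age over the other adults. A further rnf14.2 site, at position 36676488 (177 bp), was also named but is not set against C410 here. The comparison with C410 is a description of tank means, with no test.

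An age predictor with an elastic net penalty, trained on the 170 other animals (the oldest of 9.81 years), used 343 CpG sites. Predicted age was 5.62 to 7.59 years in A133 (6.24 ± 0.725), 5.98 to 7.95 in A135 (6.92 ± 0.823, or 6.57 ± 0.546 without frog 48), 6.65 to 7.57 in A137 (7.06 ± 0.383) and 5.98 to 7.22 in A139 (6.51 ± 0.421). All 22 frogs lay below the listed 10.9 years, which is outside the ages of training, and also below the oldest training age of 9.81 years. No pair of tanks passed (smallest adjusted p 0.229, two-sided exact permutation test over 6 pairs). Trained on the natural logarithm of age instead, the predictor gave 4.62 (frog 39) to 10.3 years (frog 48). Why the predictions were low was not tested.

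Groups of genes known in skin were counted by gene name, with CpG sites inside a gene or within 5000 bp of it. Extracellular matrix genes, which build the dermis and include col1a2 and col4a1, had 16 CpG sites at 10 genes, none called and 1 at an unadjusted p under 0.05. The list for immune genes had 52 sites at 18 genes, with none called and 13 at an unadjusted p under 0.05. It holds the interleukin receptors il10ra, il12rb1, il13ra2 and il4r, but also cadherins such as cdh13 and cyclin-dependent kinases such as cdk17, which were matched by the start of their name. The list for DNA methylation, with the maintenance enzyme dnmt1 and the demethylase tet2, had 5 sites, none called and 1 at an unadjusted p under 0.05. That list also holds uhrf1bp1, which was matched by the start of its name. The pigment gene pmel had 5 sites with none at an unadjusted p under 0.05, and epidermal genes such as krt62, a keratin, had 3 sites with 2. No site of these lists was called without frog 48 either, beside 0.61% and 1.04% of all sites, and 18.6% of all sites had an unadjusted p under 0.05.

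In the other lists calls appeared only without frog 48. Developmental transcription factors had 15 sites at 9 genes, with none called over 22 frogs (4 at an unadjusted p under 0.05) and 2 called without frog 48, beside 18.6% of all sites at an unadjusted p under 0.05 and 1.04% called without frog 48. Both were neighbouring sites in the homeobox gene meis1, and the means of the first were 0.835, 0.772, 0.826 and 0.839 in A133, A135, A137 and A139 with all frogs (adjusted p 0.176, and 0.0474 without frog 48, limma). Ubiquitin ligase and zinc finger genes had 47 sites at 13 genes, with none called over 22 frogs (10 at an unadjusted p under 0.05) and 2 called without frog 48. One was in trim8 and the other 719 bp from rnf146, a ubiquitin ligase, with means of 0.909, 0.913, 0.937 and 0.946 (adjusted p 0.0614, and 0.0447 without frog 48, limma). No CpG site of the table lay within 5000 bp of eef1a1, whose promoter drives the transgene.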

How the data were processed

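Methylation was measured by targeted bisulfite sequencing of 192 animals, of which 22 frogs entered the comparison of tanks. The authors trimmed reads with fastp, aligned them to the X. tropicalis v10.0 genome with BiSulfite Bolt and deposited a table of the methylated fraction at 6717 CpG sites covered by at least 100 reads in every frog, before their filter for sites with 3 levels. That filter was repeated here from its description (3-component mixture, BIC limit 90, smallest value 0.006). Tank, lane, read number (3119696 to 10377831) and mean depth came from the study's sample table, and age and strain from the labels. SAMtools 1.11 is named in the submitters' processing notes.

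Members and gene lists were chosen with earlier results of these data known. Tanks were compared with limma 3.58.1 (R 4.3.3) on log2 logits with an offset of 0.001, and a pair of tanks in mean level or predicted age by a two-sided exact permutation test adjusted over 6 pairs. The fit was tested on simulated data. The predictor was an elastic net (scikit-learn 1.9.0, l1 ratio 0.5), and the penalty chosen was the smallest of those tried. Named sites were up to 12 with the smallest F test p, the site of the largest difference in each pair, 6 by correlation with age, 5 by spread and 4 with 3 levels. Gene names came from RefSeq (UCB_Xtro_10.0). The probe table was read in part (1980 rows), and its positions differ by 1 base in counting from those of the methylation table. Alternatives were other scales, offsets and filters, depth as a covariate and leaving out frogs or tanks. The fits with depth and without frog 48 together, and the spread without frog 48, were added after seeing the data. Adjusted p-values are limma's unless an exact test is named.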

Additional observations from a re-analysis of the deposited data

Results flagged for a closer look

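Within a tank, 14 of 100 tested groups of values held a frog whose gap to the nearest other exceeded Dixon's 95% limit. Many groups were at sites picked from these same data, and some of those sites moved together. The 14 flagged groups therefore cannot be set against a chance rate. Frog 48 of A135 gave 3 of them: its mean RMS difference to its tank mates was 0.163 (0.103 to 0.111 in the 3 others), its level was out of range at 2282 sites (454 to 717 in the others), and near wscd1 it had 0.890 (0.923 to 0.929 in the others).

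Frog 59 was the single A139 frog with a raised level at the chromosome 2 sites, with 0.504 in bcas3 and 0.400 near LOC105946707 (the other 5 at 0 in both), and with 0.303 at position 96726126 near LOC116408695 (0.0722 to 0.0867 in the others). Frog 43 stood apart in A133 with 0.969 at that last site (0.284 to 0.323 in the others), with 0.126 at position 96726019 (0.0651 to 0.0838), with 0.933 at position 33129435 of chromosome 1 (0.945 to 0.955) and with 0.792 near rnf14.2 at position 36681341 (0.847 to 0.877). Near kiss1, frog 39 had 0.933 in A133 (0.707 to 0.785 in the others) and frog 51 had 0.731 in A137 (0.774 to 0.778). Frog 52 had 0.936 at position 32936104 of chromosome 8 in A137 (0.953 to 0.955), and frog 56 had 0.819 in setd3 in A139 (0.762 to 0.772).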

How the results depend on the processing

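The count of 41 CpG sites between the 4 tanks was 1 on the fraction scale, 70 with array weights, 93 with log2 depth and 103 with depth and without frog 48. It was 0 at a threshold of 0.01 (with 1250 at an unadjusted p under 0.05) and 14 with a difference of at least 0.05. Over regions of sites within 500 bp, 14 of 2365 regions were called (0.592%, beside 0.61% of sites). Without frog 48, 28 regions were called (1.18%, beside 1.04% of sites). The count of 41 sites became 1 without tank A133, 79 without A135, 21 without A137 and 0 without A139, and ranged from 7 to 83 when 1 frog was left out. It kept within 1.5 times with the filtered sites, an offset of 0.01 and robust variances.

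For A133 against A137 the count of 15 was 7 with the filtered sites, 0 on the fraction scale, 0 with robust variances, 44 with array weights, 0 at 0.01, and 41 with depth and without frog 48 (0 to 39 leaving out 1 frog). For A133 against A139 the count of 30 was 15, 6 on the fraction scale, 219 with array weights, 6 with depth and 5 at 0.01 (9 to 130). For A135 against A139 the count of 44 was 29 with the filtered sites, 20 with array weights, 304 with depth and 7 at 0.01 (16 to 129). A135 against A137 had 1 with the filtered sites and 6 with depth (0 to 11), A137 against A139 4 with array weights and 1 with depth and without frog 48 (0 to 5), and A133 against A135 0 to 2. The causes were not tested.

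In mean level over all CpGs, A133 minus A135 was -0.00301 and A135 minus A137 0.000645, both with a turned sign, and A133 minus A139 (-0.00825) and A135 minus A139 (-0.00523) no longer passed. Leaving out 1 frog gave -0.00394 to 0.00384 for A133 minus A135 (-0.000337, -0.000323, -0.000236 and -0.000446 without frogs 39, 40, 42 and 46), -0.00701 to 0.000767 for A135 minus A137, -0.0112 to -0.00858 for A133 minus A139, -0.0139 to -0.00609 for A135 minus A139 and -0.00930 to -0.00498 for A137 minus A139, which passed only without frog 54 (exact adjusted p = 0.0476). Predicted age on a natural log scale gave 0.255 for A133 minus A139 and 0.381 for A135 minus A137. With the main predictor, on untransformed age, A135 minus A137 was -0.143 and ran from -0.488 to 0.169 without 1 frog (0.0264 without frog 52). The difference in spread was -4.45e-05 without A135 and -0.000483 without frog 48. No paired analysis was possible because replicate numbers here only name frogs within a tank.

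With 4 to 8 frogs in a tank, a single frog moves most counts. The depth behind a single value is unknown beyond 100 reads. No tank was repeated within the strain and age, and the genetic variants called by the paper were not used. Tank therefore cannot be told apart from kinship or library pool with the values used here.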
